A study of Mus musculus with 4 samples.

Results

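Prostaglandin synthases and receptors were examined on 4 one-color arrays of bronchoalveolar lavage fluid (BALF) cells, that is, of cells washed out of the airspaces. The 10 genes were the cyclooxygenases Ptgs1 and Ptgs2, the terminal synthases Ptges, Hpgds, Ptgds and Tbxas1, and the receptors Ptger2, Ptger4, Ptgir and Ptgdr2. They were found through the RefSeq accession of each non-control probe, which gave 11 probes of 39429 on the array and 10 genes of the 20832 that could be named. Of the 4 arrays, 2 were hybridized with RNA of wild-type mice (Wt_bleomycin) and 2 with RNA of S1pr2-/- mice (S1P2-KO_bleomycin), which lack the sphingosine-1-phosphate receptor S1PR2. All mice had received intraperitoneal bleomycin, an agent that injures the lung and causes fibrosis, at 0.035 U/g 2 times a week, and cells were taken on day 22. No array of saline-administered mice was analysed here. According to the methods, mice were 8 to 10 weeks old and of a mixed 129Ola and C57BL/6J background, the wild-type mice were littermates, and the disruption of S1pr2 was not limited to a cell type. The methods call the RNA samples independent but do not give the number of mice behind each, so that p-values measure only the spread between these arrays. The labels call the cells alveolar macrophages, whereas the RNA came from all BALF cells.

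Prostanoids are short-lived lipid signals made from arachidonic acid, which phospholipases release from membranes. A cyclooxygenase converts it into the unstable intermediate PGH2, and a terminal synthase then turns PGH2 into PGE2, PGD2, prostacyclin or thromboxane. Each product acts on its own G protein-coupled receptors. In macrophages and in the fibrotic lung, the receptors for PGE2 and prostacyclin that raise cyclic AMP are known for restraining inflammatory and fibroblast responses, whereas PGD2 attracts eosinophils, basophils and type 2 lymphocytes through its receptor CRTH2.

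The level of a probe is given as log2 of its background-corrected signal over the 75th percentile of the array, so that 0 means a signal equal to that percentile and -6.64 is the floor set at 0.01 of it. The 75th percentiles lay between 2489 and 2817 intensity units. Levels are compared between arrays within a probe and never between probes. The S1pr2 probe gave levels of -0.13 and -0.16 on both wild-type arrays, and of 2.67 and 2.54 on the arrays labelled S1pr2-/-, which goes against the label. Whether the probe lies in the disrupted part of the gene is not given in the sources used here, and a probe outside that part checks nothing. All directions below follow the labels. Markers of alveolar macrophages were well above background on all arrays, with 10 of 10 list genes measured and summed signals of 750.1 and 823.0 times the percentile in wild-type and of 705.6 and 799.9 on the arrays labelled S1pr2-/-. Over the 27161 probes tested with limma, the replicate arrays differed on average by 0.209 in wild-type and by 0.199 between the arrays labelled S1pr2-/-, in log2 units. An exact two-sided permutation test of 2 against 2 arrays cannot go below p = 0.333.

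The promoters of both cyclooxygenases and of the prostacyclin receptor Ptgir are shown because Ptgs1 was the member with the lowest p, Ptgs2 is its inducible counterpart and Ptgir had the largest difference. All 10 members had a window in the RefSeq table of the build GRCm38.p6, and the 250 bases before the annotated start are printed on the strand of the gene, with motif matches in capitals. The windows are chr2:36230176-36230425 (plus strand) for Ptgs1, chr1:150099781-150100030 (plus strand) for Ptgs2 and chr7:16906240-16906489 (plus strand) for Ptgir. The window of Ptgs1 lies inside the span of the gene, since other annotated transcripts start further upstream. The windows of Ptges, Hpgds, Ptgds, Tbxas1 and Ptgdr2, which are not printed, also overlap the span of their gene.
Ptgs1: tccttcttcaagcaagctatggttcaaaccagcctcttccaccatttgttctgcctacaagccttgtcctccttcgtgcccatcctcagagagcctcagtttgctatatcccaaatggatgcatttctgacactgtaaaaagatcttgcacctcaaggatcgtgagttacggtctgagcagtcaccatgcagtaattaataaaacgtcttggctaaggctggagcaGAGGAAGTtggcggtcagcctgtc
Ptgs2: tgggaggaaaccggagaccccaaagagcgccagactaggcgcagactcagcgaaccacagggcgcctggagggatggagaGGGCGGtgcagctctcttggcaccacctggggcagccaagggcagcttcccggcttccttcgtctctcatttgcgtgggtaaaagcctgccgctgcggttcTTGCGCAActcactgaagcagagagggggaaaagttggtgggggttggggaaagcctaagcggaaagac
Ptgir: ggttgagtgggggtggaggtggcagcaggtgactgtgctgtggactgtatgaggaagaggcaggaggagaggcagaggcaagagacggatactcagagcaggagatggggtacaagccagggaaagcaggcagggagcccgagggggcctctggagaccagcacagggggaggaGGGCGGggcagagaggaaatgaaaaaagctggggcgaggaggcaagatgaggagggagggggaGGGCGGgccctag
In the Ptgs1 window the capitals mark GAGGAAGT, a site read by ETS factors such as the myeloid factor PU.1, which starts 24 bases before the start; it was found in 2.44% of all 32851 windows and, among the members, in Ptgs1 and Hpgds. In the Ptgs2 window they mark the GC box GGGCGG, 170 bases before the start, and the palindrome TTGCGCAA, a C/EBP site, 69 bases before it. The palindrome was found in 0.164% of all windows and in 1 member. In the Ptgir window the GC box occurs 76 and 13 bases before the start; 32.7% of all windows and 5 of the 10 members held one. The TATA box TATAAA, found in 12.4% of all windows, was matched among the members in Tbxas1 only. Its matches there start 13 and 11 bases before the start, on opposite strands, and overlap each other. The CCAAT box CCAAT (33.8%) was matched in 3 members, and the CRE half-site CGTCA (17.8%) and the E-box CACGTG (6.02%) in 0 members. Only these 250 bases were searched, so that sites after the annotated start, or further upstream, would be missed. Both strands were searched, no match in the printed windows overlaps another, and a match is a description of the letters and not of binding.

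All 11 member probes were well above background on all 4 arrays, none was at the floor, and none was called at an adjusted p under 0.05 by limma with Benjamini-Hochberg adjustment (0 members, against 0% of all probes tested, while 9.59% of probes had an unadjusted p under 0.05). The lowest adjusted p of a member was 0.513, for Ptgs1. Before adjustment, with a limma p under 0.05, 1 of the 10 genes was lower on the arrays labelled S1pr2-/-, where 5.59% of all probes tested were, and 0 were higher, where 3.998% of all probes were. The probe with the higher mean signal stood for Ptges in this count.

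**Figure D1:**
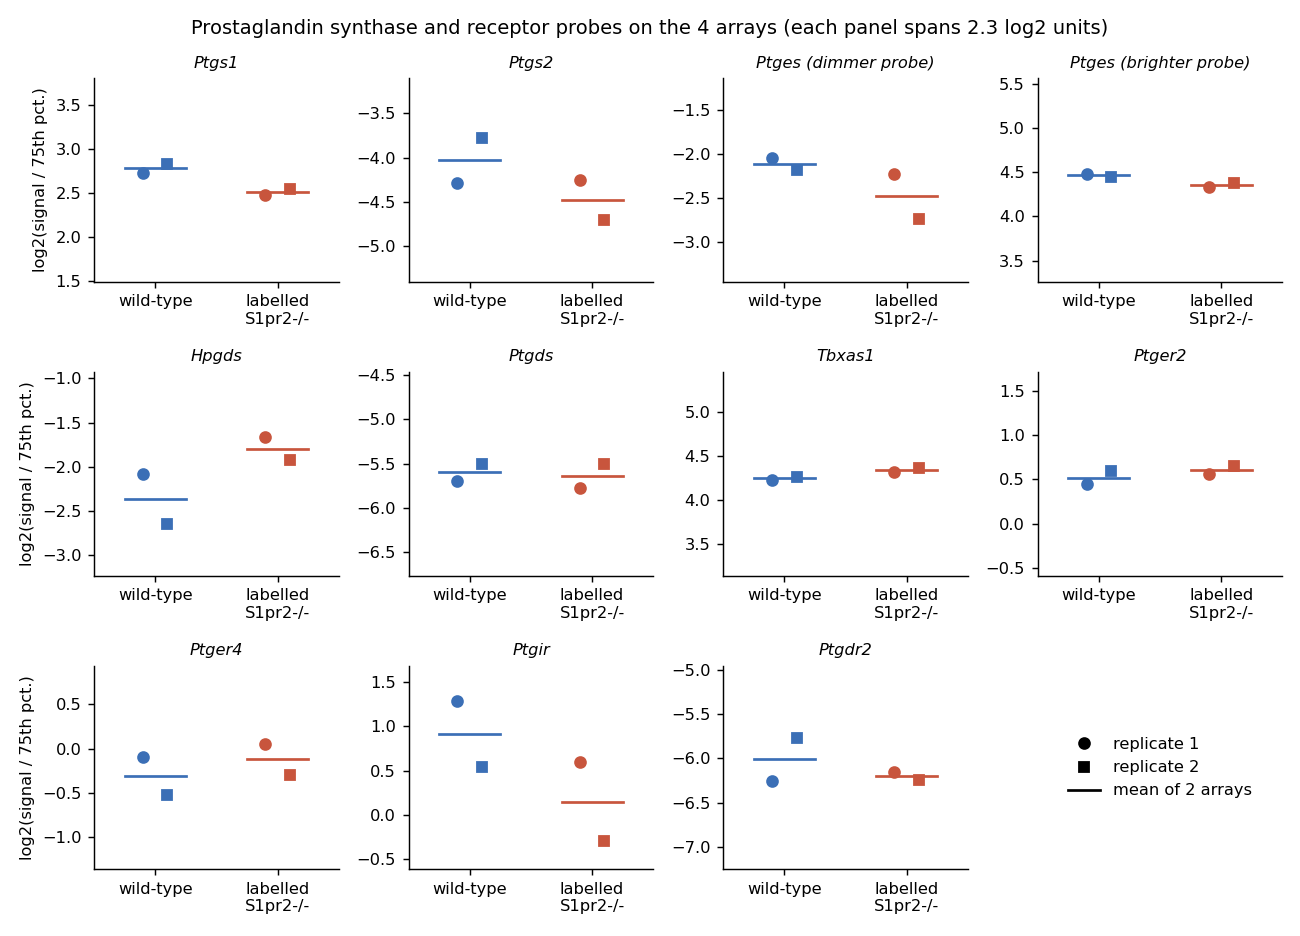
Level of each of the 11 member probes on the 4 arrays, as log2 of the signal over the 75th percentile of the array (vertical axis, a range of equal size in each panel), for wild-type (blue) and arrays labelled S1pr2-/- (red); circles are replicate 1, squares replicate 2 and lines the mean of 2 arrays. Ptgs1 lies lower and Hpgds higher on both arrays labelled S1pr2-/-, while the points of Ptgir are spread widely within both genotypes.

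Ptgs1, the constitutive cyclooxygenase COX-1, had levels of 2.73 and 2.83 in wild-type and of 2.48 and 2.55 on the arrays labelled S1pr2-/-. Both of the latter lay below both wild-type arrays, with a space of 0.184 between the groups and gaps of 0.101 and 0.064 within them. The log2 difference was -0.27 (standard error 0.071, 95% interval -0.48 to -0.05, unadjusted p = 0.0281, adjusted p = 0.513 from limma), which corresponds to a signal 1.20-fold higher in wild-type. Of all probes tested, 80.5% had a smaller absolute difference. The call at the unadjusted threshold was lost without wild-type replicate 2, without S1pr2-/- replicate 1 and without S1pr2-/- replicate 2, with the difference between -0.32 and -0.22 when each array was left out in turn.

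Ptgs2, the inducible cyclooxygenase COX-2, had levels of -4.28 and -3.78 in wild-type and of -4.25 and -4.70 on the arrays labelled S1pr2-/-. The higher of the latter lay just above the lower wild-type array, so that the groups overlapped. The log2 difference was -0.44 (standard error 0.268, 95% interval -1.26 to 0.37, adjusted p = 0.630 from limma), and the interval reaches a signal 2.39-fold higher in wild-type. It was -0.70 without wild-type replicate 1, -0.19 without wild-type replicate 2, -0.67 without S1pr2-/- replicate 1 and -0.22 without S1pr2-/- replicate 2.

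The Ptgs2 probe is printed 10 times on each array. The 10 spots lay between -4.36 and -4.20 on wild-type replicate 1 and between -3.88 and -3.71 on wild-type replicate 2. They lay between -4.43 and -3.98 on S1pr2-/- replicate 1 and between -4.86 and -4.63 on S1pr2-/- replicate 2. The SD over spots was between 0.056 and 0.116, whereas the arrays of a genotype differed by 0.502 and 0.447. The difference between the genotypes was no larger than the gaps within them. The spots of an array share 1 labelling and 1 hybridization, whose error they do not hold.

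**Figure D2:**
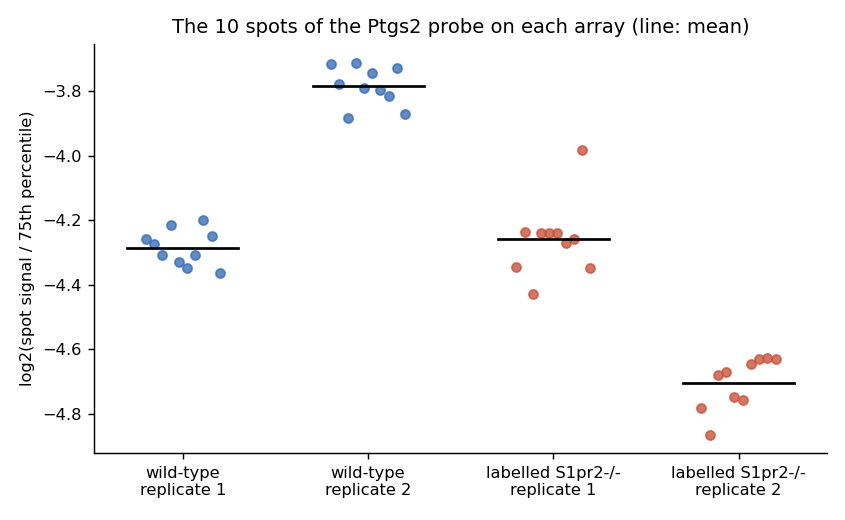
The 10 spots of the Ptgs2 probe on each of the 4 arrays, as log2 of the spot signal over the 75th percentile of the array (vertical axis); points are spots and lines are the mean of an array. Wild-type replicate 1 and S1pr2-/- replicate 1 have similar spots (-4.36 to -4.20 and -4.43 to -3.98), while the remaining arrays lie above and below them.

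Among the terminal synthases, Hpgds had the largest difference. Ptges encodes the microsomal PGE2 synthase that is coupled to COX-2. Its brighter probe had levels of 4.48 and 4.45 in wild-type and of 4.33 and 4.38 on the arrays labelled S1pr2-/-. These groups did not overlap, but the log2 difference was only -0.11 (standard error 0.058, 95% interval -0.28 to 0.07, adjusted p = 0.609 from limma).

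The dimmer Ptges probe, of the same accession, had levels of -2.05 and -2.18 in wild-type and of -2.22 and -2.73 on the arrays labelled S1pr2-/-. Its groups did not overlap either, and its log2 difference was -0.36 (standard error 0.213, 95% interval -1.01 to 0.28, adjusted p = 0.624 from limma). Both probes thus gave the same direction, and the interval of the dimmer one reaches a signal 2.02-fold higher in wild-type. The brighter probe was not saturated: the median pixel signal of its spot was between 6.55% and 7.19% of the saturation value.

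Tbxas1, the thromboxane synthase of platelets and macrophages, had levels of 4.23 and 4.27 in wild-type and of 4.32 and 4.36 on the arrays labelled S1pr2-/-. The latter lay above both wild-type arrays by 0.057. They differed by a log2 value of 0.09 (standard error 0.057, 95% interval -0.08 to 0.27, adjusted p = 0.631 from limma), and a change beyond 1.20-fold in favor of the arrays labelled S1pr2-/- lies outside the interval.

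Hpgds, the hematopoietic PGD2 synthase of mast cells, type 2 lymphocytes and some macrophages, had levels of -2.09 and -2.65 in wild-type and of -1.66 and -1.93 on the arrays labelled S1pr2-/-. Both of the latter were above both wild-type arrays, with a space of 0.157 between the groups and a gap of 0.562 between the wild-type arrays. The log2 difference was 0.57 (standard error 0.249, 95% interval -0.18 to 1.33, unadjusted p = 0.0981, adjusted p = 0.560 from limma), or 1.49-fold in favor of the arrays labelled S1pr2-/-. It was the largest positive difference among the members, and it remained positive in the 16 alternative computations, between 0.29 without wild-type replicate 2 and 0.85 without wild-type replicate 1.

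Ptgds, the lipocalin-type PGD2 synthase known mainly from brain and male genital organs, was close to the floor, with levels of -5.69 and -5.50 in wild-type and of -5.77 and -5.50 on the arrays labelled S1pr2-/-. The groups overlapped. A log2 difference of -0.04 was measured (standard error 0.139, 95% interval -0.46 to 0.38, adjusted p = 0.933 from limma). The signals were between 49.4 and 56.7 intensity units, where the floor was between 24.9 and 28.2, and the sign of the difference depended on the scaling and on the background correction.

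All 4 receptors had overlapping groups. Ptgir, the prostacyclin receptor, had the largest absolute difference of the members but also the widest spread, with levels of 1.29 and 0.54 in wild-type and of 0.60 and -0.30 on the arrays labelled S1pr2-/-. The wild-type arrays differed by 0.754 and the arrays labelled S1pr2-/- by 0.902, gaps that were larger than those of 95.9% and 97.8% of all probes tested. The log2 difference was -0.76 (standard error 0.462, 95% interval -2.17 to 0.64, adjusted p = 0.631 from limma). It was -0.39 without wild-type replicate 1, -1.14 without wild-type replicate 2, -1.22 without S1pr2-/- replicate 1 and -0.31 without S1pr2-/- replicate 2, so that each array moved its size.

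Ptger2 and Ptger4 encode the PGE2 receptors EP2 and EP4, both of which raise cyclic AMP. Ptger2 had levels of 0.45 and 0.59 in wild-type and of 0.56 and 0.65 on the arrays labelled S1pr2-/-. Its log2 difference was 0.09 (standard error 0.085, 95% interval -0.17 to 0.34, adjusted p = 0.736 from limma), and the interval excludes a signal more than 1.27-fold higher or 1.13-fold lower on the arrays labelled S1pr2-/-. It ranged from 0.014 without wild-type replicate 1 to 0.159 without wild-type replicate 2. Ptger4 had levels of -0.10 and -0.52 in wild-type and of 0.05 and -0.29 on the arrays labelled S1pr2-/-. Its log2 difference was 0.19 (standard error 0.219, 95% interval -0.48 to 0.85, adjusted p = 0.771 from limma), and it ranged from -0.02 without wild-type replicate 2 to 0.40 without wild-type replicate 1.

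Ptgdr2, which encodes CRTH2, the PGD2 receptor of eosinophils, basophils and type 2 lymphocytes, was close to the floor, with levels of -6.26 and -5.77 in wild-type and of -6.16 and -6.25 on the arrays labelled S1pr2-/-. Its signals were between 33.4 and 45.7 intensity units, and its lowest level lay 0.387 above the floor. One wild-type array stood above the other 3 arrays, which lay close together. The log2 difference was -0.19 (standard error 0.202, 95% interval -0.80 to 0.42, adjusted p = 0.752 from limma), and it was 0.06 without wild-type replicate 2, the higher array, and -0.44 (unadjusted p = 0.0317) without wild-type replicate 1.

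**Figure D3:**
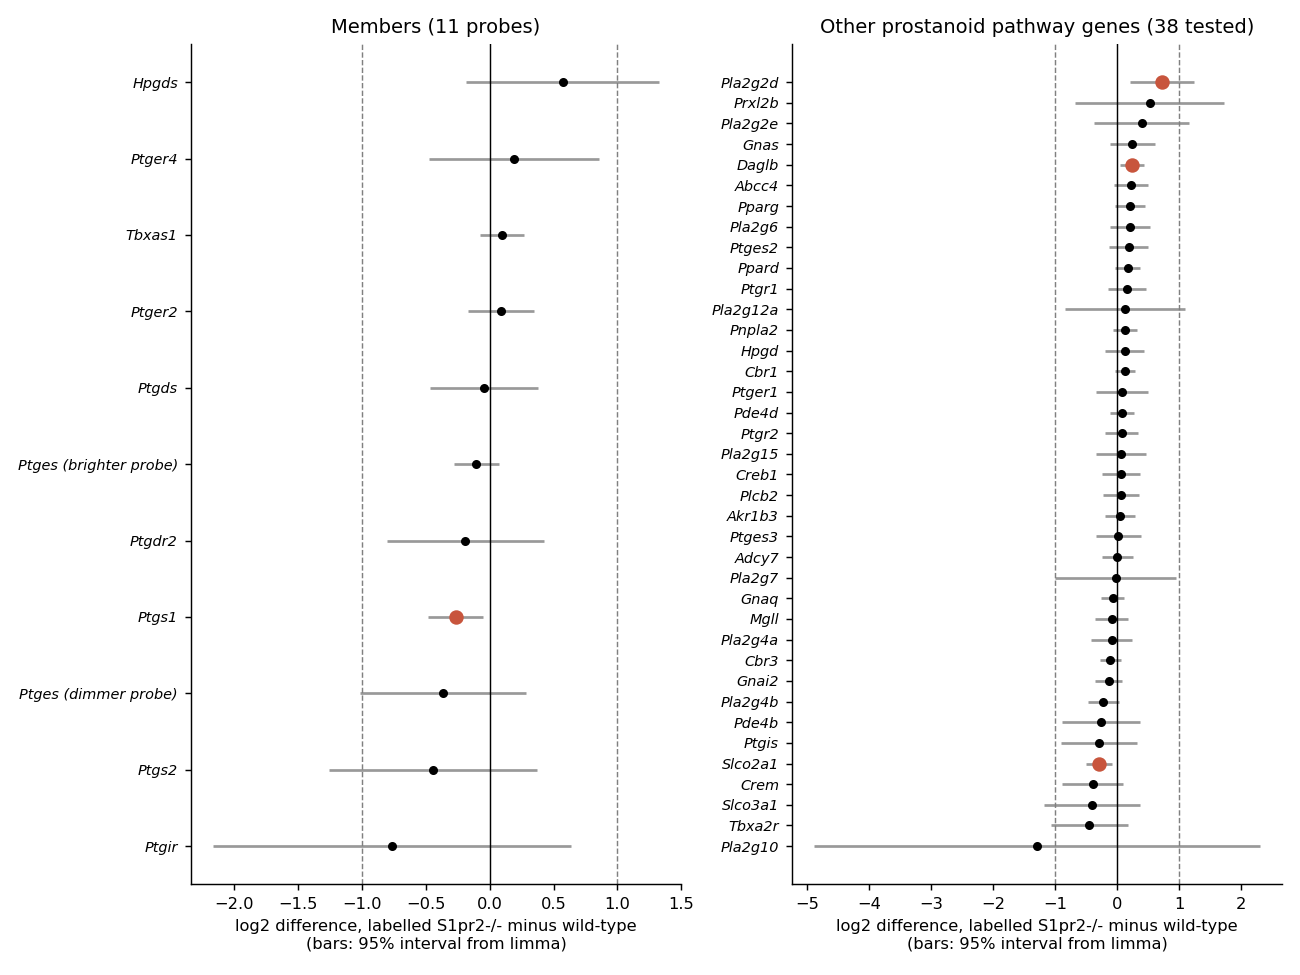
Log2 difference of the arrays labelled S1pr2-/- minus wild-type (horizontal axis) with its 95% interval from limma (bars), for the 11 member probes (left) and the 38 other pathway genes that were tested (right, on a wider axis); red points have an unadjusted p under 0.05 and dashed lines mark a 2-fold change in either direction. The intervals of Ptgs2, Hpgds and Ptgir, and just that of the dimmer Ptges probe, cross a dashed line.

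Across the 10 genes, 6 differences were negative and 4 positive, and their median was -0.07, against -0.003 over all probes tested. The median absolute difference was 0.189, against 0.117 over all probes, and the median standard error 0.171, against 0.102. The groups did not overlap in 4 genes (Ptgs1 and Ptges lower, Tbxas1 and Hpgds higher), where 41.7% of all probes did not overlap, 21.7% lower and 20.0% higher. Past 2-fold there were 0 members, where 1.42% of all probes were. The 95% interval lay within 2-fold in either direction for 7 of the 10 genes, against 86.6% of all probes. For Ptgs1, Ptges (brighter probe), Ptgds, Tbxas1, Ptger2, Ptger4 and Ptgdr2 a 2-fold change was thus outside the interval, and for Ptgs2, Hpgds and Ptgir it was not. Ptgds and Ptgdr2 lay close to the floor, so that this limit holds only for their signals as computed here. Under normexp, another background correction, their differences were 0.86 and 0.95 (standard errors 0.72 and 0.84).

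**Figure D4:**
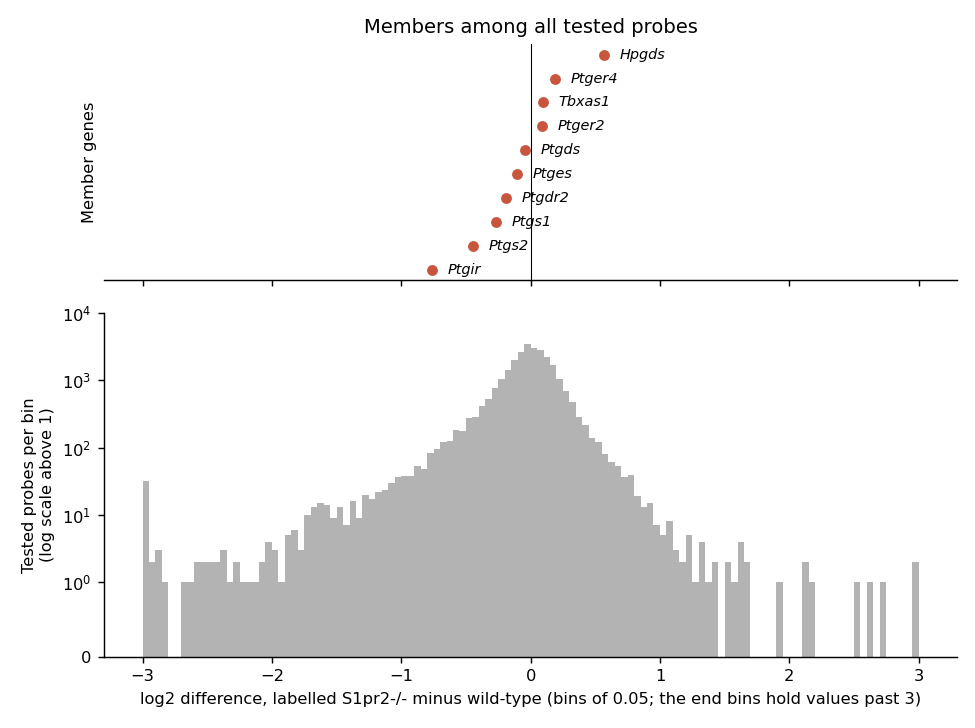
Log2 difference of the arrays labelled S1pr2-/- minus wild-type (horizontal axis) for the 10 member genes (upper panel, points) and for the 27161 probes tested (lower panel, number of probes per bin on a log scale). All members lie between -0.76 and 0.57.

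Marker sums of some other cell types of the lavage differed between the genotype labels, most of all those of eosinophils, while others overlapped. Their values are given beside the members that such cells are known to express. In bulk RNA, fewer cells of a type and less RNA per cell cannot be told apart. The 6 eosinophil markers had summed signals of 2.55 and 7.96 times the percentile in wild-type and of 0.134 and 0.219 on the arrays labelled S1pr2-/-, a ratio of group means of 29.7, and all 5 that could be tested were lower with a limma p under 0.05 before adjustment. The granule protein gene Prg2, for example, had levels of -0.07 and 1.69 in wild-type and of -5.04 and -3.99 on the arrays labelled S1pr2-/-. The 6 markers of type 2 lymphocytes had sums of 2.67 and 5.39 in wild-type and of 1.91 and 1.45 on the arrays labelled S1pr2-/-, and 3 of them were lower at that threshold. Il1rl1 made the largest part of these sums, with signals of 1.40 and 3.83 in wild-type and of 0.85 and 0.61 on the arrays labelled S1pr2-/-. It was not among those 3 (unadjusted p = 0.0612 from limma). The lower end of the interval of Ptgdr2 corresponds to a signal 1.75-fold higher in wild-type, but the probe lay next to the floor. The part of these cells in the Ptgdr2 level was not tested.

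Of the 9 markers of mast cells and basophils, which are also known to make PGD2, 5 were not well above background on any array (Mcpt8, Fcer1a, Ms4a2, Cma1 and Gata2). The sums were 0.514 and 0.553 in wild-type and 0.531 and 0.504 on the arrays labelled S1pr2-/-. Tpsb2 made the largest part of them, with signals of 0.288 and 0.259 in wild-type and of 0.234 and 0.246 on the arrays labelled S1pr2-/-. Of the 3 that could be tested, 1 was higher with a limma p under 0.05 before adjustment, where 3.998% of all probes were. It was Prss34 (log2 difference 0.25), at levels close to the floor. Of the 9 markers of monocyte-derived macrophages, 8 had a probe, and all 8 differences were positive. In 5 of them both arrays labelled S1pr2-/- lay above both wild-type arrays, where 19.98% of all probes tested did. The complement gene C1qa had levels of 3.42 and 2.90 in wild-type and of 4.03 and 3.46 on the arrays labelled S1pr2-/-. The sums of this list were 114.6 and 45.2 in wild-type and 131.3 and 79.6 on the arrays labelled S1pr2-/-, and this overlap rested on Apoe, an apolipoprotein gene with signals of 71.4 and 13.3 in wild-type and of 65.6 and 35.2 on the arrays labelled S1pr2-/-. Without Apoe, a choice made after its values were seen, the sums were 43.2 and 31.8 in wild-type and 65.7 and 44.5 on the arrays labelled S1pr2-/-, which did not overlap. With and without Apoe, the sum and the Hpgds level were higher on replicate 1 than on replicate 2 in both genotypes. This order was not particular to them, since Ptgir, Ptger4 and the sum of the B cell markers had it too. The B cell sums were 2.89 and 1.57 in wild-type and 1.71 and 1.41 on the arrays labelled S1pr2-/-. The part of mast cells, basophils or macrophages in the level of Hpgds was not tested.

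The 8 T cell markers were all lower in difference, 2 of them past that threshold, with sums of 17.4 and 18.9 in wild-type and of 15.5 and 11.5 on the arrays labelled S1pr2-/-. For Ptgs1 and Tbxas1, which platelets hold, 3 of 6 megakaryocyte and platelet markers (Gp9, Gp1ba and Gp6) were not well above background on any array. The sums of that list were 1.72 and 1.70 in wild-type and 2.88 and 1.68 on the arrays labelled S1pr2-/-, nearly all of it from the chemokine gene Pf4, which macrophages express too.

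Neutrophils and epithelial cells are known to express cyclooxygenases and Ptges. Of the 8 neutrophil markers tested, 6 had negative and 2 had positive differences. Before adjustment 3 were lower with a limma p under 0.05, namely Csf3r (log2 difference -0.28), Cxcr2 (-0.59) and Retnlg (-4.81). The 2 positive differences were those of S100a8 (0.25) and Ltf (0.36). Ngp, a further gene of the list, stayed at the floor on all 4 arrays. The neutrophil sums were 85.9 and 96.4 in wild-type and 69.5 and 63.2 on the arrays labelled S1pr2-/-. Csf3r made their largest part, with signals of 48.5 and 44.2 in wild-type and of 36.9 and 39.4 on the arrays labelled S1pr2-/-. Retnlg had signals of 6.29 and 20.2 in wild-type and of 0.289 and 0.555 on the arrays labelled S1pr2-/-. Of the 6 epithelial markers, 5 had both arrays labelled S1pr2-/- below both wild-type arrays, where 21.7% of all probes tested did. Of these, 1, Krt18, passed that threshold (-0.45). The sums overlapped, with 30.2 and 33.2 in wild-type and 24.3 and 39.9 on the arrays labelled S1pr2-/-. This overlap rested on Scgb1a1, with signals of 13.6 and 17.4 in wild-type and of 11.4 and 28.2 on the arrays labelled S1pr2-/-. The 4 erythroid markers tested all had positive differences, with a median of 0.44 and 0 past the threshold. The part of these cells in the levels of Ptgs1, Ptgs2 and Ptges was not tested.

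**Figure D5:**
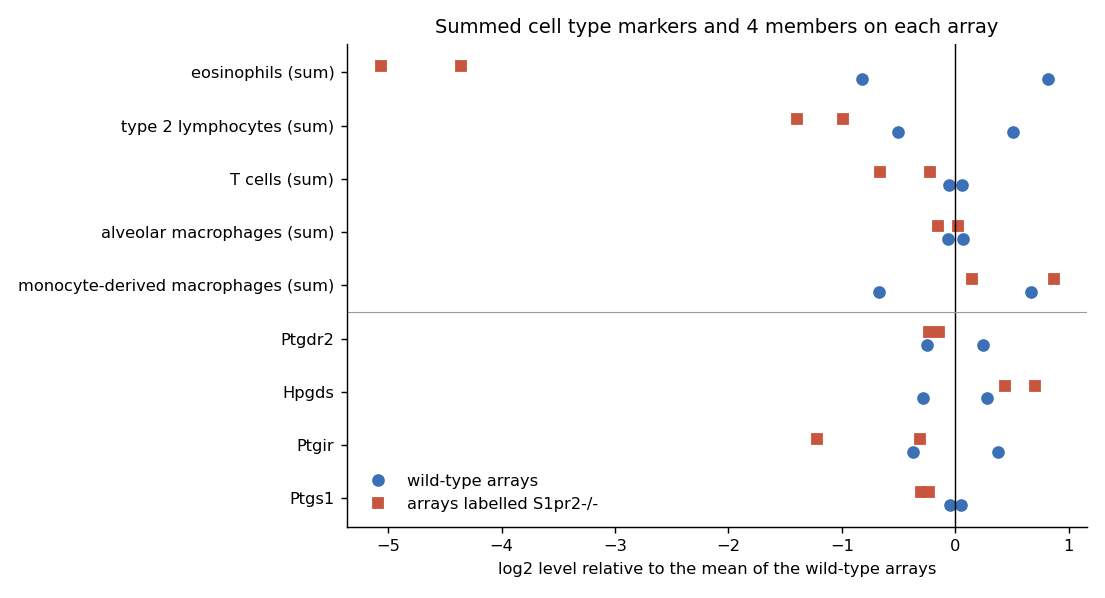
Summed signal of 5 lists of cell type markers (upper rows) and level of 4 members (lower rows) on each array, in log2 relative to the mean of the wild-type arrays (horizontal axis); circles are wild-type arrays and squares arrays labelled S1pr2-/-. The eosinophil sums of the arrays labelled S1pr2-/- lie far to the left, while the 4 members lie between -1.22 and 0.70.

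Beyond the members, 43 genes were listed by role. The roles were prostanoid supply, synthesis, reception, transport and breakdown, and the signal coupling of receptors, with 8 genes of G proteins and cyclic AMP signalling. Of the 43 genes, 38 could be tested. Of these, 1 was lower and 2 were higher at an unadjusted p under 0.05 from limma, where 5.59% and 3.998% of all probes were, and 0 passed an adjusted p of 0.05. Their median log2 difference was 0.06. Those not tested were Pla2g4c, Pla2g5 and the receptors Ptger3, Ptgdr and Ptgfr, whose probes were all at the floor and not well above background on any array.

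Pla2g2d, a secreted phospholipase of myeloid cells, had levels of -3.31 and -3.72 in wild-type and of -2.79 and -2.80 on the arrays labelled S1pr2-/-. This log2 difference was 0.72 (standard error 0.170, 95% interval 0.20 to 1.24, unadjusted p = 0.0201, adjusted p = 0.508 from limma), or 1.65-fold, and its other probe gave 0.83. Daglb, a lipase that supplies arachidonic acid through diacylglycerol, had levels of 2.31 and 2.28 in wild-type and of 2.57 and 2.49 on the arrays labelled S1pr2-/-, which differ by a log2 value of 0.23 (standard error 0.062, unadjusted p = 0.0280, adjusted p = 0.513 from limma). Slco2a1, the prostaglandin transporter that takes prostaglandins up into cells, had levels of -2.89 and -2.91 in wild-type and of -3.14 and -3.25 on the arrays labelled S1pr2-/-, which differ by a log2 value of -0.29 (standard error 0.069, unadjusted p = 0.0206, adjusted p = 0.508 from limma).

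Hpgd, which inactivates PGE2, had a log2 difference of 0.12 (standard error 0.103) on its brighter probe and of 0.32 (standard error 0.086, unadjusted p = 0.0284, adjusted p = 0.513 from limma) on the other, so that its call depended on the probe. The same held for Ptgr2, a reductase of prostaglandin breakdown products, with 0.07 (standard error 0.087) on the brightest of its probes and 0.29 (standard error 0.059, unadjusted p = 0.0134, adjusted p = 0.508 from limma) and 0.03 on the others. Pla2g10, a further secreted phospholipase, was the single gene of the list past 2-fold, with a log2 difference of -1.29 (standard error 1.18), and it rested on wild-type replicate 1 at -3.64 against -6.64, -6.64 and -6.23 on the other arrays.

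The named genes with the most similar pattern to Ptgir over the 4 arrays, by the Euclidean distance of levels after the mean of each probe was subtracted, were Entpd3 (distance 0.078), Lrrc75b (0.099), Ccr10 (0.176), Cmah (0.218) and Lef1 (0.242). Entpd3 had levels of -3.32 and -4.07 in wild-type and of -3.94 and -4.94 on the arrays labelled S1pr2-/-. Lef1, a transcription factor of lymphocytes, had levels of -1.62 and -2.17 in wild-type and of -2.40 and -3.05 on the arrays labelled S1pr2-/-. Over 4 arrays such a likeness is a description of these samples.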

How the data were processed

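RNA of BALF cells was hybridized in one color to 4 mouse genome arrays, 2 of either genotype. They shared 1 slide and 1 scan time, so that no batch could be examined. The authors deposited the intensity of every spot, background-corrected by Feature Extraction (10.7.3.1 per the labels, 11.0.1.1 per the file headers), and a table of normalized log2 values. That deposited log2 table held log2 of the signal over the 75th percentile of each array minus the mean of the wild-type arrays: 99.5% of 39429 probes lay within 0.01 on all arrays after a constant of at most 0.0123 per array was removed, and its column medians were 0.023, -0.023, -0.058 and -0.034. The methods also list a Lowess step and a minimum of 0.01, whose place in that table is unknown. It was used as an alternative only.

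Here the processed signal was divided by the 75th percentile over non-control spots, floored at 0.01 and log2-transformed. Outlier-flagged spots (115 to 273 per array) were dropped, 0 spots were saturated, and spots of a probe were averaged. Probes that were detected well above background on both arrays of either genotype (27161 of the 39359 measured on all arrays) were fitted with limma 3.58.1 in R 4.3.3, with Benjamini-Hochberg adjustment over all of them and no covariate. Per array, 67.6% to 72.2% of probes were detected so; the number of arrays limits the precision. Probes were named through accessions in a RefSeq table (GRCm38.p6; 69.6% of probes); the array design uses another build. A gene with several probes was represented by the tested probe with the highest mean level. All members are named with every probe. Other pathway genes are named if they passed an unadjusted p of 0.05 or 2-fold, or if their groups lay over 0.5 apart. The 5 nearest patterns to the member with the largest difference are named too. Pathway genes outside this rule (Hpgd, Ptgr2, those not tested) were named after their values were seen. So were some markers (Apoe, Retnlg, S100a8, Ltf, Krt18, Tpsb2, those not above background), beyond up to 4 markers per list. The members and lists were chosen with earlier results of these data known. Alternatives were the scaling (quantiles, detected probes), normexp, the deposited table, the floor, the filter (none, or stricter), flagged spots kept, a trended variance, a t-test, the median over the probes of a gene, a replicate block and omission of each array. The script was tested on simulated data.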

Additional observations from a re-analysis of the deposited data

How the results depend on the processing

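Each member's difference was recomputed in 16 alternatives, and 0 members passed an adjusted p of 0.05 in the 15 that give one (limma or, as named, the methods' t-test). The remaining one, the median over the probes of a gene, has no test and moved Ptges to -0.24. Under normexp background correction, on the median spot signal, the median of all probes moved to 0.19 and the sign turned for Ptgs2 (0.34), Ptgds (0.86), Tbxas1 (-0.0082) and Ptgdr2 (0.95), while 0 members and 0 other pathway genes were lower and 0 other pathway genes higher at an unadjusted p under 0.05, the threshold of all counts here, where 1.05% of all probes passed in either direction. Quantile normalization turned Ptgds (0.066). With the percentile taken over detected probes, Ptgds and Ptgdr2 were at the floor on all arrays (difference 0), 2 members were lower and 1 higher (11.5% of all probes in either direction), and 2 other pathway genes were lower and 4 higher.

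Without a filter 2 members were lower and 1 was higher (7.72% of all probes in either direction), and 2 other genes were lower and 3 higher. The trended variance gave 3 lower and 4 higher other genes (10.01% of all probes in either direction). The methods' t-test gave 2 lower and 2 higher (7.68% of all probes). The authors' log2 table and omission of the floor gave 1 lower and 1 higher each (9.09% and 8.87% of all probes). With each array left out in turn, Ptgs2 ranged from -0.70 to -0.19, Ptger2 from 0.014 to 0.159, Ptgds from -0.18 to 0.092, Ptger4 from -0.022 to 0.40 and Ptgdr2 from -0.44 to 0.055. The members lower ranged from 0 to 2, those higher from 0 to 1 (6.65% to 8.79% of all probes in either direction), the other genes lower from 0 to 2 and those higher from 1 to 2, with the lone array of a genotype assumed to vary like the pair. The cause of these moves was not tested.

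Replicate numbers pair the arrays by number only, with a correlation of 0.187 between same-numbered deviations over 2 pairs. In the fit with the replicate block, 2 members were lower (Ptgs1 and Ptgir, unadjusted p = 0.0369 and 0.00587), 1 was higher (Hpgds, unadjusted p = 0.0272), where 8.95% of all probes passed in either direction, and 2 other genes were lower and 4 higher. The lowest adjusted p of a member in that limma fit was 0.529. The precision is limited by 2 arrays per genotype and, for Ptgds and Ptgdr2, by signals near the floor.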
